A study of Mus musculus with 4 samples.

Results

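The genes described here are the 10 members of the retinoic acid synthesis and receptor set: the retinaldehyde dehydrogenases Aldh1a1, Aldh1a2 and Aldh1a3, the nuclear receptors Rara, Rarb, Rarg, Rxra and Rxrg, the degrading enzyme Cyp26b1 and the retinol-binding protein gene Rbp2. They were chosen by symbol, and all 10 were found among the 32285 genes of the count tables. Their unique molecular identifiers (UMIs, each standing for 1 captured transcript) were read in single-nucleus RNA-seq libraries of mouse pituitary glands. The libraries are labelled as males of 22 months, females of 22 months, males of 5 months and females of 5 months. Per the labels, all mice were wild-type UM-HET3, a genetically heterogeneous cross, each library pooled nuclei from 3 snap-frozen glands, and the chemistry captured polyadenylated 3′ ends. There was 1 library per group, so the spread between animals of a group was not measured.

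Retinoic acid is made from vitamin A. Retinol is oxidised to retinaldehyde, the Aldh1a enzymes oxidise retinaldehyde to retinoic acid, and enzymes of the Cyp26 family break retinoic acid down. Retinoic acid receptors (RARs) bind DNA as partners of retinoid X receptors (RXRs), and RXRs also pair with thyroid hormone, vitamin D and other nuclear receptors. In the pituitary, Aldh1a2 is known as a gene of the Sox2-positive stem cells, and RXR-gamma, the product of Rxrg, is known for its part in the control of thyrotropin.

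After filtering, 10161 nuclei of the 22-month male, 7115 of the 22-month female, 7032 of the 5-month male and 6475 of the 5-month female library remained (30783 in all), with median depths of 4125, 4716, 3452 and 3624 UMIs in that order. The nuclei were grouped without use of the members' counts into 26 clusters, from which 11 classes were named by marker genes and summed within each library. The classes were stem-, pituicyte-, somatotrope-, lactotrope-, corticotrope-, melanotrope-, gonadotrope-, thyrotrope-, endothelial-, macrophage- and fibroblast/mural-like nuclei. Pairs of libraries shared 14 to 43 cell barcodes. The sex labels of 2 libraries went against their sex-chromosome transcripts. Xist, the transcript of the inactive X chromosome, was present in 97.4% of nuclei of the library labelled 22-month males and in 85.7% of the library labelled 22-month females. Y-linked transcripts were present in 85.7% of nuclei of the library labelled 5-month males and in 84.2% of the library labelled 5-month females. Labelled age and the sex chromosomes therefore cannot be told apart in these libraries, and groups are named below only as labelled.

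The members' counts differed widely: 10037 UMIs of Rarb, 5589 of Rxrg, 3357 of Aldh1a1, 2760 of Rarg, 1622 of Aldh1a2, 1357 of Rara, 858 of Rxra, 597 of Aldh1a3, 235 of Cyp26b1 and 138 of Rbp2 over all kept nuclei. Nuclear reads can come from introns, so counts may depend on gene length, whose part was not tested. Levels are therefore compared below between classes and libraries and not between genes. On mouse build mm10 the annotated genes span 22.5 kb for Cyp26b1, 22.6 kb for Rarg, 41.2 kb for Rxrg, 86.5 kb for Rxra, 151 kb for Aldh1a1 and 388 kb for Rarb. Rarb lies on the minus strand of chromosome 14 from 16430839 to 16819156 and overlaps Top2b, a topoisomerase gene on the opposite strand. Aldh1a1 lies on the plus strand of chromosome 19 from 20492715 to 20643465 and overlaps the antisense transcript C730002L08Rik. No source used here gives the use of strand in counting, so reads of these overlapping pairs may not be fully separable.

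Promoter windows of RefSeq genes (GRCm38.p6, the same coordinates as mm10; 250 bases before and 50 bases after a start) were available for 9 of the 10 members, in 16 windows; none was available for Aldh1a3. The windows were searched on both strands for direct repeats in which AGGTCA (or, with a change of G to T or of A to G, AGTTCA or GGGTCA or GGTTCA) is followed, after 1, 2 or 5 bases, by any of the same letters; repeats of these spacings are the textbook binding sites of RAR and RXR pairs. A single window of the 16 held a match, an internal start of Rarb, with a 5-base spacer from 53 to 37 bases before the start. Among all 32851 windows, 0.0974% held a repeat with that spacer, 0.268% one with 2 bases and 0.222% one with 1 base. The 250 bases before the start are shown 5′ to 3′ for that window with the repeat in capitals (chr14:16575477-16575726, minus strand). They are also shown for a gene of synthesis, Aldh1a2 (chr9:71215539-71215788, plus strand), and the gene of breakdown, Cyp26b1 (chr6:84593811-84594060, minus strand). The windows of Aldh1a2 and Cyp26b1 held no match.
Rarb: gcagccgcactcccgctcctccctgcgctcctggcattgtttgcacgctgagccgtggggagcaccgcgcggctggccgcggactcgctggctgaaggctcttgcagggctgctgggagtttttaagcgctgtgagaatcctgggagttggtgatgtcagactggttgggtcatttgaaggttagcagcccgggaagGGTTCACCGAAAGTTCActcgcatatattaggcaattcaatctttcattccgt
Aldh1a2: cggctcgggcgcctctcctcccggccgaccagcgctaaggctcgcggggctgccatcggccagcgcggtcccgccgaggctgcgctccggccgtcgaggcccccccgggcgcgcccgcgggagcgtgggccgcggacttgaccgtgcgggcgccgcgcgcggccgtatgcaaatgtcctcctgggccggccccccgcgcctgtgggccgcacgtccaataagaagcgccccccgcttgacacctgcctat
Cyp26b1: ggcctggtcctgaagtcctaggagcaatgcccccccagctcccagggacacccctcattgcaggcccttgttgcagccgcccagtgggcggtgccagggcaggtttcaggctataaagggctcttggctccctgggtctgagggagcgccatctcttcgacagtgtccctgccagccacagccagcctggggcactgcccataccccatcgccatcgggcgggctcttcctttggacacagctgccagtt
A match is a description of letters and does not show binding.

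The first comparison asked in which classes each member was transcribed. The members fell into separate places: the synthesis enzymes Aldh1a1 and Aldh1a2 in stem-like nuclei, the degrading enzyme Cyp26b1 in endothelial-like nuclei, Rarb in stem-, endothelial- and fibroblast/mural-like nuclei, Rarg in endothelial-like nuclei and Rxrg in thyrotrope- and somatotrope-like nuclei. Values are CPM (counts per 1000000 UMIs of the summed class). Since classes were built from the same nuclei, differences between classes are a description with no test, and intervals and detection floors cover counting error only.

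**Figure D1:**
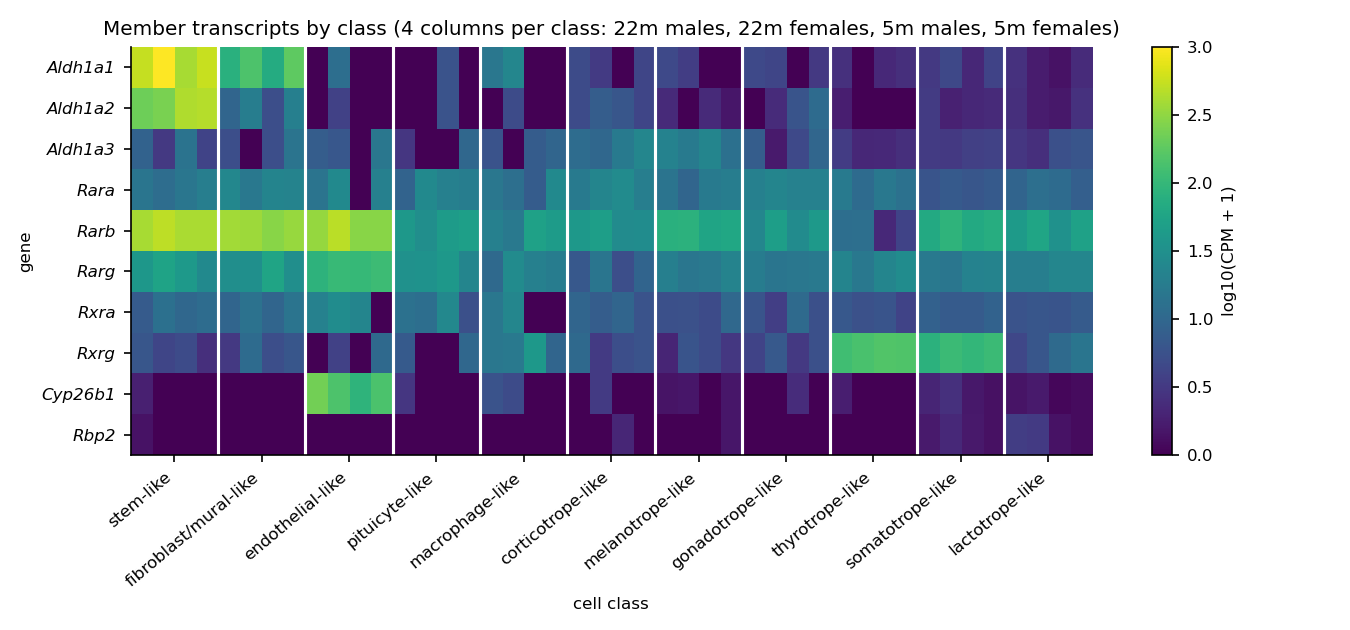
Level of each member (rows) in 11 classes (blocks of columns), as log10(CPM + 1); the 4 columns of a block are the 22-month male, 22-month female, 5-month male and 5-month female library. The bright blocks, with class means of 100 CPM or more, are Aldh1a1 in stem- and fibroblast/mural-like, Aldh1a2 in stem-like, Rarb in stem-, fibroblast/mural- and endothelial-like, Cyp26b1 and Rarg in endothelial-like and Rxrg in thyrotrope- and somatotrope-like nuclei.

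Aldh1a1 averaged 626 ± 260 CPM in stem-like nuclei (SD, n = 4 libraries) and 118 ± 53.9 CPM in fibroblast/mural-like nuclei. These ranges did not overlap with each other or with any other class, whose means were 9.39 CPM or less. Stem-like nuclei held 86.8% of all Aldh1a1 UMIs with 3.5% of the UMIs of all genes. Aldh1a7, a close mouse paralog of Aldh1a1 between which reads can be split, reached at most 3.02 CPM in any class. The antisense transcript C730002L08Rik was also highest in stem-like nuclei, at 77.2 and 123 CPM in the 22-month male and female libraries and 51.5 and 109 CPM in the 5-month male and female libraries.

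Aldh1a2 was still more restricted. It averaged 344 ± 129 CPM in stem-like nuclei, against 12.2 ± 7.0 CPM in fibroblast/mural-like nuclei, the next class (SD, n = 4 libraries each). The other 9 classes had means of 0.202 to 4.81 CPM. Of all Aldh1a2 UMIs, 86.9% lay in stem-like nuclei. At an equal depth of 1500 UMIs per nucleus, 28.8% of 1548 stem-like nuclei had an Aldh1a2 UMI and 52.6% had an Aldh1a1 UMI, compared with 0.184% and 0.337% of 9797 somatotrope-like nuclei, a class with little of either gene; at full depth the stem-like shares were 40.5% and 64.6%.

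The pair was found in the same stem-like nuclei about as often as their separate shares give. At 1500 UMIs, 236 of 1548 nuclei had UMIs of both genes, and the product of the separate shares is 235 nuclei. Aldh1a2 was detected in 29.0% of nuclei with and 28.6% of nuclei without an Aldh1a1 UMI. The counts per library were 93 nuclei with both in the 22-month males (94.0 from the separate shares), 56 in the 22-month females (55.5), 44 in the 5-month males (40.9) and 43 in the 5-month females (43.8). Detection at this depth is sparse, and these counts do not separate nuclei that lack a transcript from nuclei in which it was missed.

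Aldh1a3 had a different place. It averaged 17.8 ± 4.68 CPM in melanotrope-like and 14.7 ± 6.30 CPM in corticotrope-like nuclei, the classes that transcribe the Pomc hormone precursor gene (SD, n = 4 libraries each). Their ranges overlapped. The other classes averaged 1.58 to 6.72 CPM. The ranges of endothelial-, fibroblast/mural- and stem-like nuclei overlapped both, with highest values of 14.6, 13.3 and 12.9 CPM. In the melanotrope-like class both clusters held it, at 18 CPM in the larger and 21.3 CPM in the smaller, of which 5-month males gave most nuclei.

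Cyp26b1, the enzyme that clears retinoic acid, averaged 151 ± 58.3 CPM in endothelial-like nuclei and 2.17 CPM or less in each of the other 10 classes. No Cyp26b1 UMI was counted in fibroblast/mural-like nuclei, which allows up to 2.03 CPM over the libraries together. In the endothelial-like sums there were 69 UMIs (230 CPM) in 22-month males, 51 (143 CPM) in 22-month females, 8 (89.1 CPM) in 5-month males and 29 (141 CPM) in 5-month females. The counting intervals of these libraries overlapped in part, at 179 to 291, 107 to 188, 38.5 to 176 and 94.6 to 203 CPM in the same order.

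Among the RARs, Rarb averaged 436 ± 46.6 CPM in stem-like, 350 ± 92.4 CPM in endothelial-like and 345 ± 38.1 CPM in fibroblast/mural-like nuclei (SD, n = 4 libraries each). These 3 classes overlapped in order and all lay above somatotrope-like nuclei, the next class, at 73.0 ± 10.4 CPM. Thyrotrope-like nuclei had the lowest level, 6.73 ± 5.34 CPM, below the range of every other class. Because the somatotrope- and lactotrope-like classes are large, 31.3% and 26.7% of all Rarb UMIs came from them. Top2b, which overlaps Rarb, had its highest mean in endothelial-like nuclei (145 CPM) and 75.5 to 114 CPM in stem-like nuclei.

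Rarg averaged 100.7 ± 10.6 CPM in endothelial-like nuclei and lay above all other classes in each library. Stem-, fibroblast/mural- and pituicyte-like nuclei followed with overlapping ranges, at means of 39.2, 36.2 and 31.6 CPM. The endocrine classes had 7.93 CPM in corticotrope-like to 21.6 CPM in thyrotrope-like nuclei. Rara was low and even. Its class means ran from 5.67 ± 0.573 CPM in somatotrope-like to 20.9 ± 4.84 CPM in corticotrope-like nuclei, and which class was highest changed with the library left out.

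Of the RXRs, Rxrg averaged 139 ± 15.4 CPM in thyrotrope-like and 100 ± 12.2 CPM in somatotrope-like nuclei, with ranges that did not overlap (119 to 153 and 84.8 to 111 CPM; SD, n = 4 libraries each). Macrophage-like nuclei followed at 19.3 ± 13.3 CPM, from 14 UMIs in all, and the other classes at 8.05 CPM or less. The macrophage-like sums also had the second highest mean of the somatotrope marker Gh, 68403 CPM, and its part was not tested. All 5 somatotrope-like clusters held it, at 82.5 to 109 CPM. At 1500 UMIs per nucleus, 17.9% of thyrotrope-like and 13.7% of somatotrope-like nuclei had an Rxrg UMI, against 0.388% of stem-like nuclei. Rxra was low in every class, with means of 4.55 to 17.6 CPM; classes next to each other in the order of means had overlapping ranges. Rxrb, the remaining RXR gene and no member, averaged at most 25.6 CPM, in macrophage-like nuclei.

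**Figure D2:**
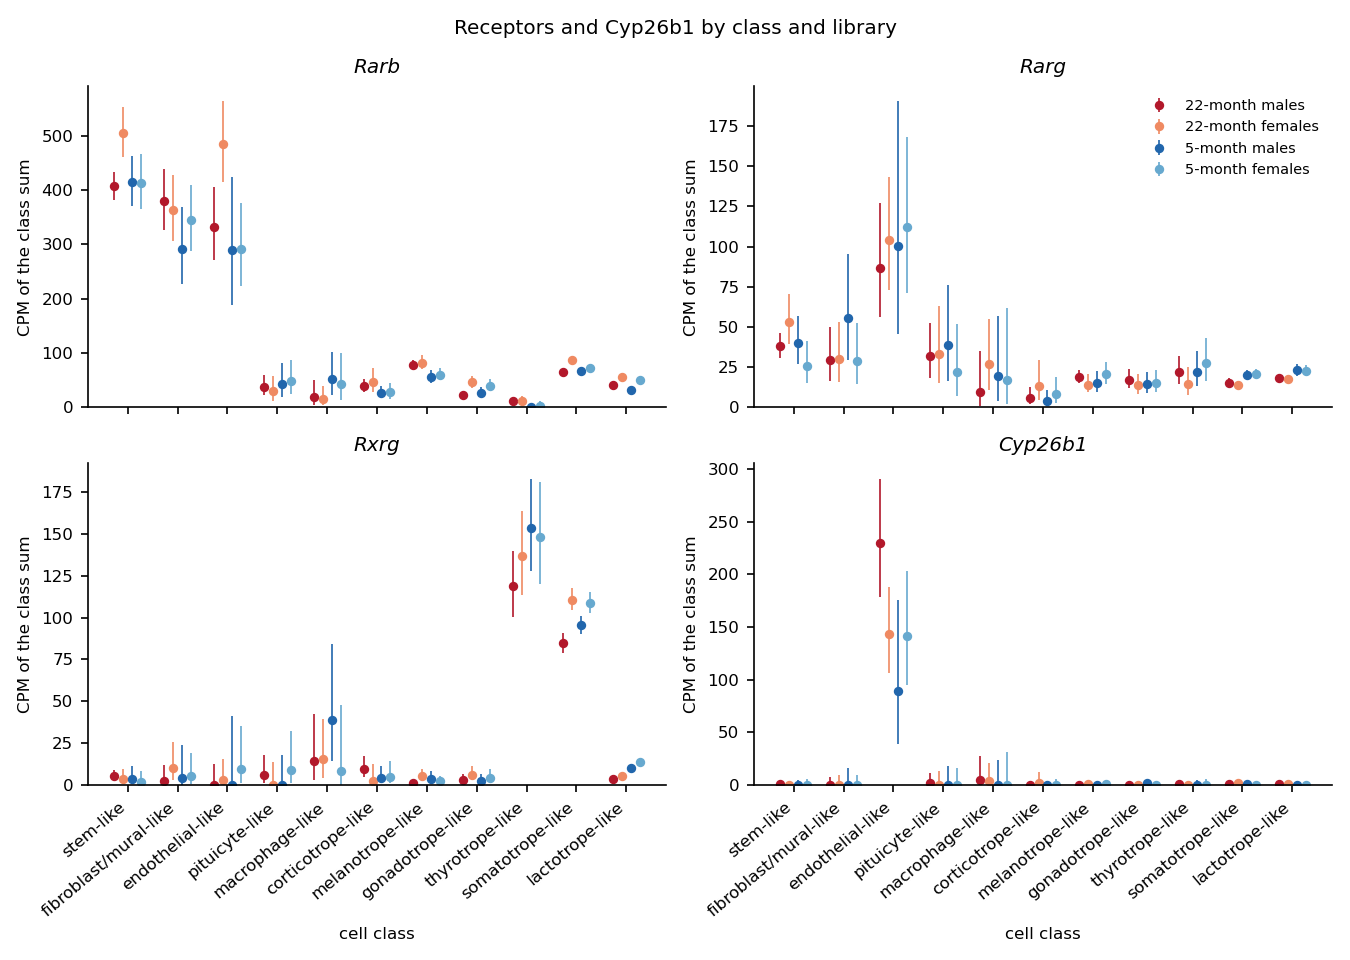
Rarb, Rarg, Rxrg and Cyp26b1 in CPM by class (x axis) and library (colours); bars are 95% Poisson intervals of the count. Rarb stands high in 3 classes, Rarg and Cyp26b1 in endothelial-like nuclei, and Rxrg in thyrotrope- and somatotrope-like nuclei, in all 4 libraries.

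Rbp2, which in the intestine binds newly absorbed retinol, was nearly absent. Its highest class mean was 1.33 ± 1.17 CPM, in lactotrope-like nuclei, and no UMI was counted in 6 of the 11 classes.

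Genes with the most similar pattern were sought for the 7 members that reached 20 CPM in a class, by Pearson's r of log2(CPM + 5) over the 44 class sums of all libraries, which share libraries and depth. The closest to Aldh1a1 was Slc26a7 (r = 0.94), to Aldh1a2 the predicted gene Gm867 (0.96), to Rarb Adamts9 (0.86), to Rarg Fzd4 (0.84) and to Rxrg B4galnt3 (0.88). Cyp26b1 had the tightest match, with Nr5a2, Exoc3l2, Irx5, Robo4 and Ctla2a at 0.98 to 0.99. For Rara the best was Mus81 at 0.64. Between members, Aldh1a1 and Aldh1a2 had r = 0.89, Rarg and Cyp26b1 0.70, and Aldh1a1 and Rarb 0.65.

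The other genes that handle retinoids, from a list of 32, had their highest mean levels in several classes. Fibroblast/mural-like nuclei stood above every other class for Adh1, which oxidises retinol, at 141 ± 24.6 CPM, and for Cyp1b1, at 67.1 ± 22.8 CPM (SD, n = 4 libraries each). For Rdh10, which also oxidises retinol, their range of 29.7 to 65.5 CPM overlapped that of stem-like nuclei (25.7 to 33.8 CPM). Dhrs3, which reduces retinaldehyde back to retinol, had 48.7 to 111 CPM in macrophage-like nuclei, which overlapped the 26.6 to 61.7 CPM of endothelial-like nuclei. Rbp4, the retinol carrier of plasma, had 19.2 to 118 CPM in thyrotrope-like and 33.7 to 55.0 CPM in somatotrope-like nuclei, ranges that overlapped. Thrb, a thyroid hormone receptor gene whose product pairs with RXRs, had 558 to 623 CPM in thyrotrope-like nuclei and 459 to 619 CPM in lactotrope-like nuclei. Stra6, a receptor for Rbp4, had 9.68 to 25.8 CPM in pituicyte-like nuclei, overlapping the 5.04 to 14.8 CPM of fibroblast/mural-like nuclei.

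The next comparison asked which members differed with labelled age, 22-month over 5-month libraries, within a class. Of 110 member-class pairs, 43 passed the filter on low counts and were tested in class sums with edgeR's quasi-likelihood test, with labelled sex as a term and 1 residual degree of freedom, so the error rests largely on spread shared across genes. Adjusted p-values are Benjamini-Hochberg values over all genes tested in the class. In all, 5 of the 43 pairs changed, 3 higher and 2 lower in the 22-month libraries, next to 7.34% of all gene-class pairs (4.11% higher, 3.23% lower). The median log2 fold change of the 43 pairs was 0.04. The class medians of all genes, taken over the 11 classes, had a median of -0.01. These describe pairs that passed the filter and support nothing by themselves: 4 of the 43 passed it through the libraries of 1 age only, and 1 of those, Rbp2 in lactotrope-like nuclei, is among the 5. The 5 were Aldh1a2 and Aldh1a1 in stem-like and Rxrg, Rbp2 and Rarb in lactotrope-like nuclei. Without 22-month males the count was 2, without 22-month females 1, without 5-month males 1 and without 5-month females 0. DESeq2 called 1, Aldh1a2 in stem-like nuclei, and 2 passed without the sex term. Different clusters held most nuclei of the 22-month and 5-month libraries in the lactotrope-, somatotrope- and gonadotrope-like classes, and most melanotrope-like nuclei of the 5-month males lay in a cluster of their own, so that cluster and library cannot be told apart in these classes. The median log2 fold change of all genes lay between -0.02 and 0.01 in each of the 11 fits.

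**Figure D3:**
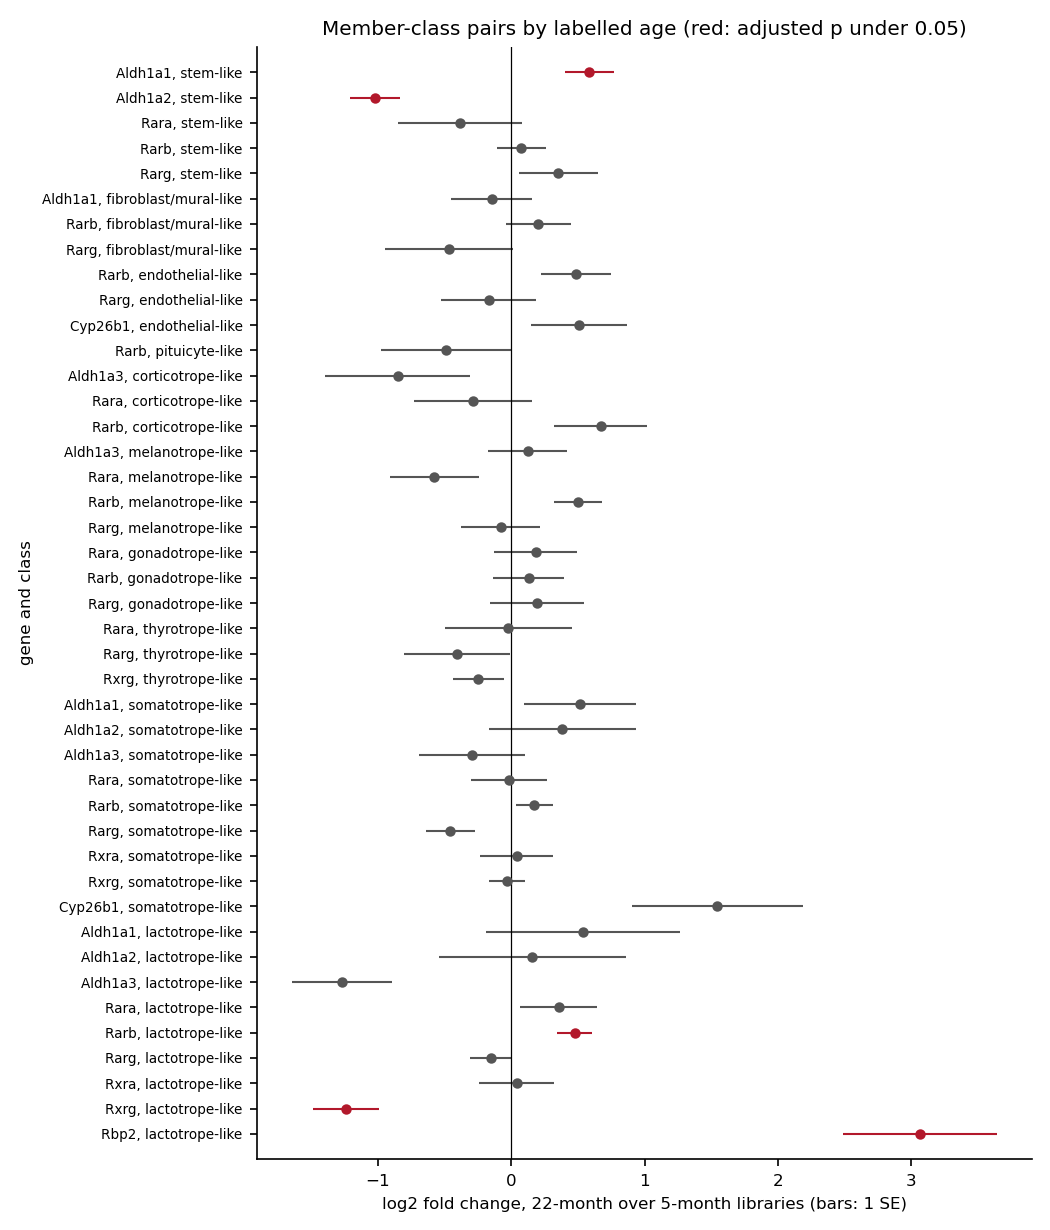
Log2 fold change of 22-month over 5-month libraries with 1 standard error for the 43 tested member-class pairs, grouped by class; red marks adjusted p under 0.05. Aldh1a1 and Aldh1a2 lie on opposite sides of 0 in stem-like nuclei, and Rbp2 in lactotrope-like nuclei lies farthest to the right.

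In stem-like nuclei Aldh1a2 and Aldh1a1 were called by labelled age with opposite signs. Aldh1a2 was lower in both 22-month libraries than in both 5-month libraries. For Aldh1a1 the fold change was positive, but the labelled ages overlapped. Aldh1a2 had 527 UMIs (218 CPM) in 22-month males and 228 (248 CPM) in 22-month females, against 346 (445 CPM) in 5-month males and 308 (465 CPM) in 5-month females. The age groups did not overlap, the 22-month values being lower as for 19.1% of genes with at least 40 UMIs in this class, and within each age the counting intervals of the libraries did. The log2 fold change was -1.02 ± 0.19 (SE; edgeR adjusted p = 6.31e-06; 5.18% of genes were called in this class). The change had the same sign without each library, from -1.06 to -0.93, and the adjusted p was 0.121 without 5-month males and 0.109 without 5-month females. In the 2 libraries whose sex-chromosome transcripts go with their label, 22-month females and 5-month males, the log2 ratio was -0.84. These libraries differ in both labelled age and labelled sex.

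Aldh1a1 had 1312 UMIs (542 CPM) in 22-month males and 920 (1002 CPM) in 22-month females, against 314 (404 CPM) in 5-month males and 369 (557 CPM) in 5-month females. The groups overlapped: the 22-month males lay just below the 5-month females, and the 22-month females stood highest. The log2 fold change was 0.58 ± 0.18 (SE; edgeR adjusted p = 0.0331). Without 22-month females it was 0.18 (adjusted p = 0.921), without 5-month males 0.43 (0.803), without 5-month females 0.86 (0.437) and without 22-month males 1.0 (0.000118), and DESeq2 gave an adjusted p of 0.630. Between 22-month females and 5-month males, the libraries that go with their sex label, the log2 ratio was 1.31. These libraries differ in both labels, and for Aldh1a1 they are the highest and the lowest.

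The number of Aldh1a1 UMIs per Aldh1a2 UMI in stem-like nuclei was 2.49 in 22-month males (95% interval 2.25 to 2.76) and 4.04 in 22-month females (3.49 to 4.69), against 0.908 in 5-month males (0.776 to 1.06) and 1.2 in 5-month females (1.03 to 1.40). Both 22-month values lay above both 5-month values, and the intervals of the ages did not overlap. This ratio does not depend on library scaling, and with 1 library per group it was not tested. At 1500 UMIs, Aldh1a2 was detected in 23.2% and 30.5% of stem-like nuclei of 22-month males and females. The shares in 5-month males and females were 36.2% and 38.1%. For Aldh1a1 the shares were 50.8% and 70.3%, against 40.1% and 54.8%, so the labelled ages overlapped.

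**Figure D4:**
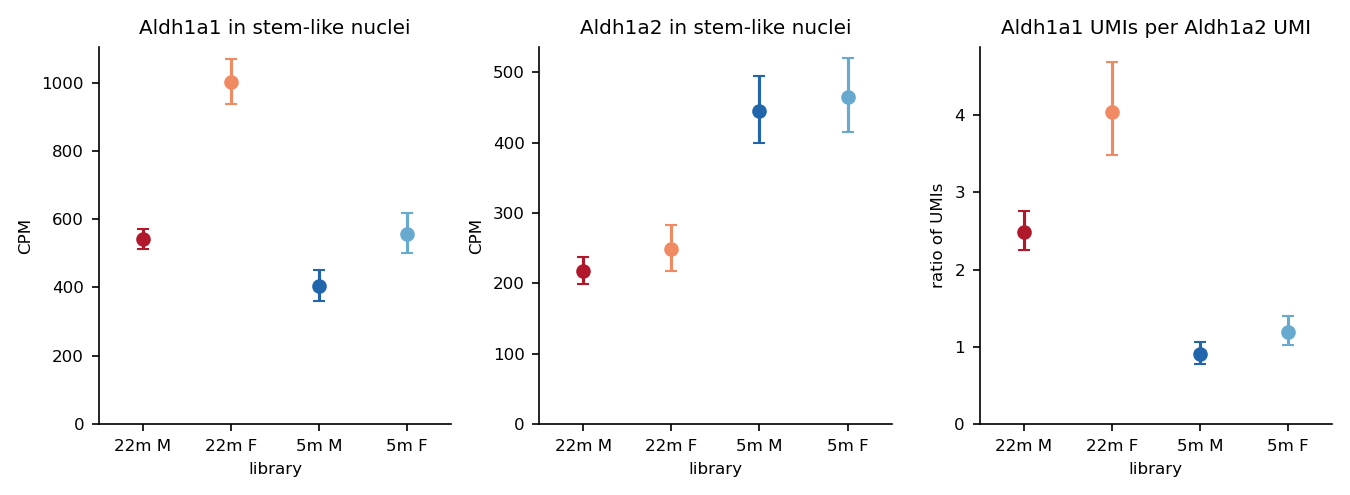
Aldh1a1 and Aldh1a2 in CPM in stem-like nuclei and the number of Aldh1a1 UMIs per Aldh1a2 UMI, by library on the x axis (22m and 5m for months, M and F for the labelled sex); bars are 95% counting intervals. Aldh1a2 is at 218 and 248 CPM in the 22-month libraries, below the 445 and 465 CPM of the 5-month libraries, and the ratio is above 2 only in the 22-month libraries.

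Other transcripts also differed between the libraries in the stem-like class, and their part in these results was not tested. The summed lactotrope markers (4 of 5 detected; Agtr1b was at 0 in each library) were 71337 and 25294 CPM in 22-month males and females, against 10848 and 5437 CPM in 5-month males and females. The summed somatotrope markers were 30318 and 15750 CPM, against 56121 and 30104 CPM, so the labelled ages overlapped, with Pappa2 at 0 in 5-month females. The 10 immediate-early genes summed to 152 and 113 CPM in the 22-month male and female libraries, against 1060 CPM in the 5-month males and 192 CPM in the 5-month females. Sox2, the defining stem marker, had 76.0 and 66.4 CPM, against 108 and 93.6 CPM, and did not pass (log2 fold change -0.55 ± 0.23, edgeR adjusted p = 0.169). Stem-like nuclei made up 8.25% of kept nuclei in 22-month males and 3.81% in 22-month females, against 4.74% in 5-month males and 3.49% in 5-month females.

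The remaining members tested in stem-like nuclei were receptors, and none passed. Rarb had 408 and 505 CPM in 22-month males and females, against 416 and 414 CPM in 5-month males and females (log2 fold change 0.08 ± 0.19, SE; -0.025 without 22-month females). Rarg gave 0.35 ± 0.30 and Rara -0.38 ± 0.46 on the same scale.

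In lactotrope-like nuclei 9 members were tested and 3 passed, beside 21.8% of all genes in this class. Rxrg, sparse in this class, had 76 UMIs (3.41 CPM) in 22-month males and 100 (5.38 CPM) in 22-month females, against 72 (9.87 CPM) in 5-month males and 121 (13.6 CPM) in 5-month females. Both 22-month values lay below both 5-month values, as did those of 46.1% of genes with at least 40 UMIs here. The log2 fold change was -1.24 ± 0.25 (SE; edgeR adjusted p = 0.0129). At 1500 UMIs, an Rxrg UMI was found in 0.399% and 0.638% of nuclei of 22-month males and females, against 1.58% and 2.19% in 5-month males and females; in stem-like nuclei, which had little Rxrg, the shares were 0.627% and 0%, against 0.355% and 0%.

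The summed markers of somatotropes, whose class carries most Rxrg, were also lower in both 22-month libraries. Within each labelled age they were lower in the females, where Rxrg was higher. The 4 markers were detected in every lactotrope-like sum and added to 18552 and 10001 CPM in 22-month males and females, against 41354 and 27274 CPM in 5-month males and females. Gh, growth hormone, led that sum, at 18090 and 9214 CPM, against 40945 and 26610 CPM (log2 fold change -1.16 ± 0.27, edgeR adjusted p = 0.0214); this missed the threshold without each library in turn (0.0643 to 0.441). Their part in the Rxrg result was not tested. Without 5-month females the Rxrg value was -0.95 (adjusted p = 0.221) and without 22-month females -1.59 (0.0772); it also missed the threshold without 22-month males (0.139), without 5-month males (0.0745), with DESeq2 (0.0631) and without the sex term (0.0586).

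Rbp2 had 55 UMIs (2.47 CPM) in 22-month males and 41 (2.21 CPM) in 22-month females, against 3 (0.411 CPM) in 5-month males and 2 (0.224 CPM) in 5-month females. Both 22-month values lay above both 5-month values, as did those of 18.5% of genes with at least 40 UMIs in this class. The log2 fold change was 3.06 ± 0.58 (SE; edgeR adjusted p = 0.0106). Rbp2 passed the filter on low counts, here 0.727 CPM, through the 22-month libraries alone, so it had to differ among tested genes and its call is given as a description. With so few 5-month UMIs the size is loose: the ratio was 6.0 between the male libraries (95% interval 1.95 to 29.97) and 9.84 between the female libraries (2.56 to 84.0). It missed the threshold without 22-month males (adjusted p = 0.0659), without 22-month females (0.0796), without 5-month females (0.0837) and with DESeq2 (0.0542).

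Of the 101 lactotrope-like Rbp2 UMIs, 62 lay in 1 of the 5 lactotrope-like clusters, cluster 5 of 1078 nuclei, all from 22-month libraries. There the level was 25.04 CPM in 22-month males (44 UMIs in 380 nuclei) and 5.76 CPM in 22-month females (18 UMIs in 698 nuclei). In that cluster 28 of the 380 nuclei of 22-month males, 7.37%, had an Rbp2 UMI. The other clusters had 0.249 to 1.40 CPM. The 5-month lactotrope-like nuclei lay almost wholly in cluster 23 (4578 nuclei), which held 0.308 CPM of Rbp2 and the highest Rxrg level of the 5 clusters, 11.9 CPM against 2.66 to 6.21 CPM. Clusters and libraries cannot be told apart here, since different clusters hold the lactotrope-like nuclei of the different ages.

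**Figure D5:**
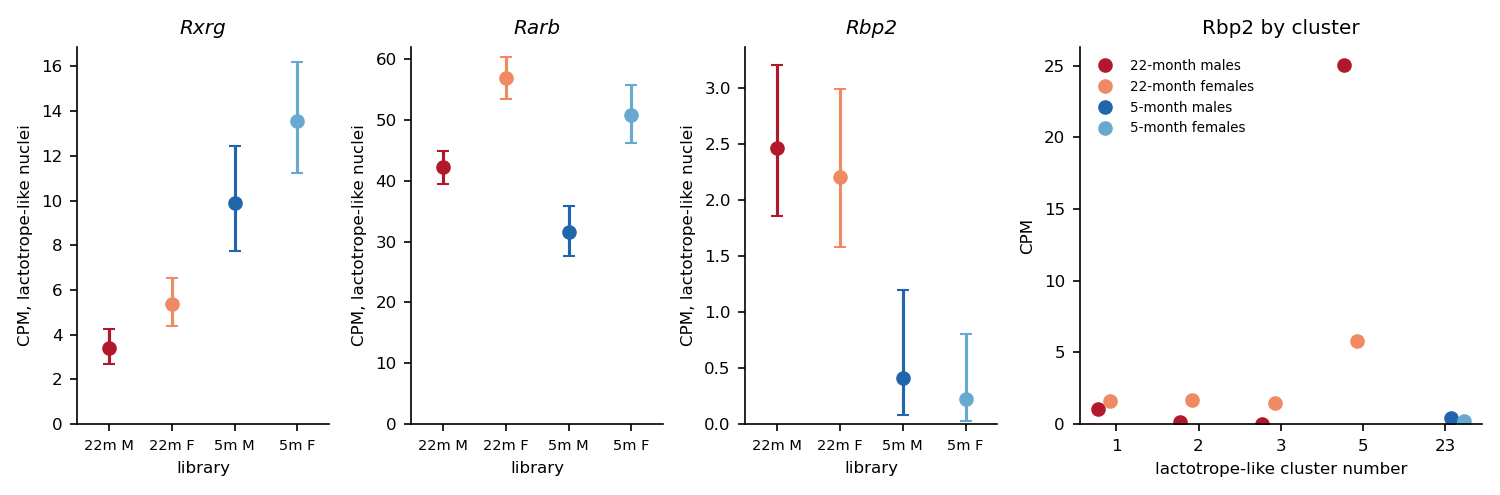
Rxrg, Rarb and Rbp2 in CPM in lactotrope-like nuclei by library (bars, 95% Poisson intervals), and Rbp2 in CPM by lactotrope-like cluster for libraries with at least 30 nuclei in it. Rxrg is at 3.41 and 5.38 CPM in the 22-month libraries, below 9.87 and 13.6 CPM in the 5-month libraries, and Rbp2 reaches 25.04 CPM in cluster 5.

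Rarb in lactotrope-like nuclei had 42.2 and 56.9 CPM in 22-month males and females, against 31.5 and 50.9 CPM in 5-month males and females. The groups overlapped, with both libraries labelled female above both labelled male. The log2 fold change by labelled age was 0.48 ± 0.13 (SE; edgeR adjusted p = 0.0399). It was 0.22 without 22-month females (adjusted p = 0.743), 0.16 without 5-month males (0.726), 0.65 without 22-month males (0.198) and 0.88 without 5-month females (0.0966). It also missed the threshold with DESeq2 (0.216), without the sex term (0.294) and at a finer clustering (0.05001). Between 22-month females and 5-month males alone the log2 ratio was 0.85 for Rarb, -0.88 for Rxrg and 2.42 for Rbp2. These libraries differ in both labelled age and labelled sex, and for Rarb they are the highest and the lowest. Top2b, which shares its locus with Rarb, had 93.8 and 88.8 CPM, against 106 and 97.9 CPM.

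Aldh1a3 in the same nuclei fell just short of the threshold. It had 1.97 and 1.51 CPM in 22-month males and females, against 4.39 and 5.15 CPM in 5-month males and females, with a log2 fold change of -1.27 ± 0.38 (SE; edgeR adjusted p = 0.0509). It passed with doublets kept (0.0481), with members kept among the clustering genes (0.0498) and with no filter on low counts (0.0149). The other 5 lactotrope-like tests, of Rara, Rarg, Rxra, Aldh1a1 and Aldh1a2, gave log2 fold changes of -0.15 to 0.54 and did not pass.

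No member passed by labelled age in the other classes. The thyrotrope-like values here and below leave out an unnamed cluster of 602 nuclei with markers of both thyrotropes and lactotropes. Nearly all of its nuclei came from 22-month libraries, and Rxrg was at 62.0 CPM in it. In thyrotrope-like nuclei Rxrg had 119 and 137 CPM in 22-month males and females, against 153 and 148 CPM in 5-month males and females (log2 fold change -0.25 ± 0.19, SE; edgeR adjusted p = 0.521). In somatotrope-like nuclei it had 84.8 and 111 CPM, against 95.6 and 109 CPM (-0.03 ± 0.14; 0.915), with a direction that turned to 0.14 without 22-month males, 0.05 without 5-month females and 0.12 with doublets kept. Cyp26b1 in endothelial-like nuclei gave 0.51 ± 0.36 (0.700) and Rarb there 0.49 ± 0.26 (0.592). Rarb in melanotrope-like nuclei had 78.8 and 82.7 CPM, against 55.9 and 60.4 CPM, higher in both 22-month libraries as were 18.8% of genes with at least 40 UMIs (0.50 ± 0.18; 0.135). On simulated counts of the same size, 2-fold changes were recovered for 13 of 100 genes in endothelial-like sums. The number was 47 of 100 in stem-like and 70 of 100 in lactotrope-like sums. For 4-fold changes it was 86, 93 and 97 of 100 in that order. All genes of a class were simulated with the same spread, and only genes with at least 40 expected UMIs were changed. These rates therefore do not carry over to single members.

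By labelled sex, females over males, none of the 43 pairs passed, beside 1.07% of all gene-class pairs. DESeq2 also called 0. Aldh1a1 in stem-like nuclei came closest: 1002 CPM in 22-month females and 557 CPM in 5-month females, against 542 CPM in 22-month males and 404 CPM in 5-month males (log2 fold change 0.63 ± 0.18, SE; edgeR adjusted p = 0.0511). In fibroblast/mural-like nuclei Aldh1a1 had 146 CPM in 22-month females and 181 CPM in 5-month females, against 78.4 CPM in 22-month males and 68.6 CPM in 5-month males. Both female-labelled values lay above both male-labelled ones, as for 20.6% of genes with at least 40 UMIs, and the log2 fold change was 1.04 ± 0.31 (SE; edgeR adjusted p = 0.0596). Rarb gave 0.56 ± 0.13 in lactotrope-like (0.167) and 0.85 ± 0.27 in gonadotrope-like nuclei (0.212). Each side of this contrast held 1 library with Xist and 1 with Y-linked transcripts.

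The rest of the pathway was read from 4 fixed lists over the 11 classes by labelled age, beside the 7.34% of all gene-class pairs that passed (4.11% higher, 3.23% lower). Of the 68 tested pairs of other retinoid-handling genes, 3 were higher and 3 lower in 22-month libraries, a share near that background, with a median log2 fold change of -0.19. The number higher and lower was 1 and 2 without 22-month males, 0 and 2 without 22-month females, 0 and 1 without 5-month males and 0 and 1 without 5-month females. Rbp4 fell in lactotrope-like nuclei (-1.31 ± 0.18, edgeR adjusted p = 0.00339), with 15.4 and 10.9 CPM in 22-month males and females, against 35.8 and 37.4 CPM in 5-month males and females; the adjusted p was 0.0517 without 5-month females. It fell in thyrotrope-like nuclei too, with 45.2 and 19.2 CPM, against 118 and 96.3 CPM (-1.72 ± 0.26, 1.48e-05; 0.0537 without 5-month males). The other calls were less stable. In lactotrope-like nuclei Rdh10 was higher (1.01 ± 0.23, 0.0206) and Fabp5, a carrier of fatty acids and retinoic acid, lower (-1.06 ± 0.30, 0.0448), and each missed the threshold without any 1 of the libraries (0.0607 to 0.165 for Rdh10, 0.107 to 0.226 for Fabp5). In somatotrope-like nuclei Dhrs3 had 5.53 and 6.64 CPM in 22-month males and females, against 1.41 and 2.08 CPM in 5-month males and females (1.85 ± 0.35, 0.00937), and it too missed the threshold without each library (0.113 to 0.342). Rdh16, a retinol dehydrogenase, was highest there in 22-month females, at 9.25 CPM against 1.54 to 2.77 CPM in the other libraries (1.80 ± 0.45, 0.0346). Without 22-month females its log2 fold change was 0.90 (0.682); it also missed the threshold without 5-month males (0.535) and without 5-month females (0.312), and was 2.59 without 22-month males (0.0470).

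Of 43 tested pairs of genes known to respond to retinoic acid, 1 was higher and 11 lower, with a median of -0.35. The number lower was 5 without 22-month males, 3 without 22-month females, 1 without 5-month males and 6 without 5-month females. The pair that was higher was Dhrs3, named above. Btg2, an antiproliferative gene, gave 6 of the 11, and none of these passed without 5-month males. Btg2 also stands on the immediate-early list, of whose 59 tested pairs 1 was higher and 32 were lower, or 2 lower without 5-month males. Immediate-early transcripts were highest in the 5-month male library in stem-like nuclei, and their part in the Btg2 values was not tested. Pcp4, a calmodulin-binding peptide gene, fell in lactotrope-like nuclei by 1.89 on the log2 scale and passed without each library (edgeR adjusted p of 0.00529 to 0.0346). The remaining calls were Pcp4 in melanotrope- and fibroblast/mural-like nuclei (-0.76 and -2.48) and Drd2, the dopamine D2 receptor gene, in lactotrope- and thyrotrope-like nuclei (-0.70 and -1.42). Each of these 4 missed the threshold in every fit without 1 library (lowest adjusted p 0.186, 0.348, 0.0692 and 0.0712 in that order), and Pcp4 in fibroblast/mural-like nuclei was not tested without 5-month females. Pcp4 in fibroblast/mural-like and Drd2 in thyrotrope-like nuclei passed the filter on low counts through the 5-month libraries alone.

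Receptors that pair with RXRs gave 3 higher and 6 lower of 65 tested pairs, with a median of -0.03. The number higher and lower was 4 and 3 without 22-month males, 1 and 2 without 22-month females, 1 and 2 without 5-month males and 2 and 5 without 5-month females. Vdr, the vitamin D receptor gene, changed in opposite directions in lactotrope- and thyrotrope-like nuclei. It had 1.61 and 2.85 CPM in lactotrope-like nuclei of 22-month males and females, against 17.1 and 18.6 CPM in 5-month males and females (-2.84 ± 0.28, edgeR adjusted p = 0.000717). In thyrotrope-like nuclei Vdr had 153 and 130 CPM, against 52.0 and 44.3 CPM (1.55 ± 0.22, 5.32e-06). Both passed without each library, with adjusted p up to 0.0152 and 0.0147. In somatotrope-like nuclei Vdr gave 1.66 ± 0.42 (0.0366), 0.79 without 22-month females (0.676) and 2.44 without 22-month males (0.0356), and it missed the threshold without 5-month males (0.530) and without 5-month females (0.322). Ppara, a receptor for fatty acids, had 50.8 and 59.9 CPM in stem-like nuclei, against 90.1 and 92.1 CPM (-0.78 ± 0.24, 0.0224), and missed the threshold without each library (0.0665 to 0.358). Nr1h4, the bile acid receptor gene, gave 2.04 ± 0.61 in fibroblast/mural-like nuclei (0.0402), where it passed the filter through the 22-month libraries alone. Its value was 1.21 without 5-month males (0.918), 1.66 without 22-month females (0.999), 2.16 without 22-month males (0.122) and 6.99 without 5-month females (0.0183). The other 4 lower pairs were of Nr4a1 and Nr4a2, of which Nr4a1 is on the immediate-early list; Nr4a1 in thyrotrope-like nuclei passed without each library (adjusted p up to 0.0375), and the other 3 did not pass without 5-month males.

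Coregulators gave 10 higher and 0 lower of 106 tested pairs, with a median of 0.16. Of all gene-class pairs, 4.11% were higher and 3.23% lower. DESeq2 called 5 higher and 0 lower, and its share over all gene-class pairs is not given here. The number higher was 5 without 22-month males, 3 without 22-month females, 1 without 5-month males and 1 without 5-month females. Nrip1, a corepressor of ligand-bound nuclear receptors, rose in lactotrope-like nuclei by 1.45 on the log2 scale, with 161 and 232 CPM in 22-month males and females, against 74.7 and 87.5 CPM in 5-month males and females, and it passed without each library (edgeR adjusted p up to 0.0382). In gonadotrope- and thyrotrope-like nuclei it gave 1.17 and 0.96 and missed the threshold without 5-month males (0.170 and 0.157) and without 5-month females (0.228 and 0.160). In somatotrope-like nuclei it gave 0.81 and passed only when the 22-month males were the library left out (0.0470, against 0.221 to 0.427), and in melanotrope-like nuclei 0.72, which missed the threshold without each library (0.138 to 0.670). Crebbp, an acetyltransferase coactivator, gave 0.62 to 0.70 in gonadotrope-, lactotrope-, melanotrope- and somatotrope-like nuclei, and its relative Ep300 0.53 in somatotrope-like nuclei. These 5 missed the threshold without each library (0.0704 to 0.999), except Crebbp in lactotrope-like nuclei without 22-month males (0.0421).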

How the data were processed

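Per the file headers, the matrices were written by Cell Ranger 7.0.1, and per the submitters' processing notes the genome build was mm10; no source used here says whether intron reads or strand were used. The deposited values are raw UMI counts per gene and barcode, 1 matrix per library, with 13595, 8509, 8343 and 7765 barcodes and 65773807, 49262366, 33328821 and 35240987 UMIs in the 22-month male, 22-month female, 5-month male and 5-month female libraries.

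Barcodes with under 500 genes or over 5% mitochondrial UMIs were left out, and doublets were called per library with Scrublet at a score of 0.147, the median of its automatic thresholds, chosen after the scores were seen (12.1% to 15.8% removed). Nuclei were clustered with scanpy 1.11.5 from 3000 variable genes without the members, 30 principal components, 15 neighbours and Leiden resolution 1. Clusters were named from fixed marker lists by a scoring rule settled after the clusters were seen; 3 clusters stayed unnamed, and lymphocyte- and proliferating-like clusters were too small to sum. Raw counts were summed per class and library, and CPM, exact Poisson intervals at 95% and a floor of 3 UMIs were computed from the sums. Shares of nuclei were compared after thinning each nucleus to 1500 UMIs. Differences were tested with edgeR 4.0.16 (quasi-likelihood, TMM, filterByExpr), with DESeq2 1.42.0 as an alternative. The edgeR fit by labelled age was run on simulated counts, and no other step was. The labels give no replicate numbers, so no samples were paired. Of the other lists, genes were named where they passed by labelled age. Members, lists and tests were chosen with earlier results of these data known. Overlapping genes were taken from GENCODE M21. The level of 1 gene of the lists is not reported here.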

Additional observations from a re-analysis of the deposited data

Results flagged for a closer look

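The members were also counted in clusters that entered none of the comparisons above, because they stayed unnamed or were too small to sum. These are levels in single clusters over all libraries, with no test and no explanation. An unnamed cluster of 602 nuclei, nearly all from 22-month libraries and with markers of both thyrotropes and lactotropes, had Rxrg at 62.0 CPM (229 UMIs), Rarg at 19.8, Rarb at 13.8, Rara at 13, Rxra at 5.15, Aldh1a3 at 2.44 and Aldh1a1 at 1.90 CPM. An unnamed cluster of 109 nuclei, all from 22-month males, had Rarb at 81.7 CPM (77 UMIs), Rxrg at 48.8 (46 UMIs), Aldh1a1 at 21.2, Rarg at 19.1, Aldh1a2 at 13.8, Rxra at 7.43 and Rara at 5.31 CPM. An unnamed cluster of 26 nuclei had Rarb at 100.6 CPM (6 UMIs) and Aldh1a1 at 83.9 CPM (5 UMIs). Lymphocyte-like nuclei (38) had Rarg at 66.3 CPM (10 UMIs). Proliferating-like nuclei (35) had Rxrg at 43.9 CPM (11 UMIs), Rarb at 24.0 (6 UMIs), Aldh1a3 at 19.97 (5 UMIs) and Rarg at 19.97 CPM (5 UMIs). Each of these counts is above the floor of 3 UMIs.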

How the results depend on the processing

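The class with the highest mean level was the same for all 10 members at the finer clustering, with members kept among the clustering genes and without 22-month males or 5-month females; it was the same for 9 without 22-month females, without 5-month males and in thinned nuclei (Rara differed) and for 8 with doublets kept (Rara and Rxra differed). Of the 43 member-class pairs, 5 passed by labelled age. The count was 5 with RLE size factors, 7 with no filter on low counts, 6 with doublets kept, 6 with members kept among the clustering genes and 4 at the finer clustering, and the 5 pairs stayed among them except for Rarb in lactotrope-like nuclei at the finer clustering. It was 1 with DESeq2, 2 without the sex term, and 0 to 2 when each library was left out; those fits have no term for the other label and 1 library in a group, assumed to vary like the rest. By labelled sex the count was 0, and 1 with RLE size factors, 1 with doublets kept (Aldh1a1 in stem-like nuclei in both) and 2 with no filter (adding Rarb in lactotrope-like nuclei); it was 0 without each library. The signs of the lactotrope-like Rara, Rarg, Rxra, Aldh1a1 and Aldh1a2 fold changes were not followed across settings. Of the other fold changes named in the text, 2 changed sign, neither past the threshold. Rarb in stem-like nuclei was 0.08, with -0.025 without 22-month females and up to 0.23 without other libraries. Rxrg in somatotrope-like nuclei was -0.03. It was 0.14 without 22-month males, 0.05 without 5-month females, 0.12 with doublets kept, and down to -0.19 without other libraries. The cause was not tested. No paired analysis was possible because the labels give no replicate numbers and each group has 1 library. Depth limits the members in the small classes, where few passed the filter on low counts and none was tested in macrophage-like nuclei. The comparison of the 2 libraries whose sex-chromosome transcripts go with their labels was added after seeing the data. It does not separate labelled age from labelled sex.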
